A study of Rattus norvegicus with 9 samples.

Results

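Txnip and the 4 ARRDC genes Arrdc1, Arrdc2, Arrdc3 and Arrdc4 were followed in RBL-2H3 cells (RBLs), a mast cell (MC) model that derives from a basophilic leukemia of the rat. They belong to the alpha-arrestin family, were picked by gene symbol and make up 5 of the 18006 genes with a value in the files. Txnip itself was chosen because its mRNA was precisely lower after antigen, so its levels are given as a description and no test is attached to them. The other members were taken for their family membership.

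RNA was sequenced in 3 control samples (Ctrl), 3 samples labelled IgE/DNP (DNP) and 3 samples labelled PF. The DNP samples were sensitized with anti-DNP IgE at 50 ng/mL for 12 h and challenged with the antigen DNP-HSA at 100 ng/mL for 4 h. The PF samples had the same IgE and antigen and were pretreated for 1 h with PF, which the labels do not identify. One label field gives the PF samples stimulation times of 4, 5 and 6 h, and another gives 4 h. The Ctrl samples are called untreated in one field, while a protocol shared by all samples gives the sensitization and the antigen. It is therefore not settled whether the Ctrl cells received IgE. The words after antigen stand here for DNP against Ctrl, a difference that may include the 12 h with IgE as well. All samples come from a single cell line grown in the same medium, and no label says that replicates came from separate cultures, so the p-values below measure only the spread between these samples.

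The deposited values are read as FPKM, a unit that corrects the fragment number for gene length and sequencing depth. They summed to between 573023 and 630069 FPKM, with every PF sample (at least 610206) above the Ctrl and DNP samples. The number of reads is unknown. The spacing of low values, read in 10 genes, gave relative depths from 0.984 to 1.02. Only genes whose values lay near whole multiples of 1 step shared by the samples were kept. Genes with steps that differed more between samples were left out, so this range cannot show that depths were equal. Of the 7 MC and basophil markers checked, each was at 52.96 FPKM or more in every sample, among them the IgE receptor gene Fcer1a at 409.9 to 503 FPKM. Of 9 markers of other cell types, Pecam1 (43.6 to 61.8 FPKM) and Cd3e (6.74 to 9.52 FPKM) were detected in all samples, and the others stayed at or below 1.10 FPKM. All 9 samples correlated best with a sample of their own group.

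Alpha-arrestins share a fold with the beta-arrestins but act mainly as adaptors. They bind membrane proteins and, through PPxY motifs, recruit ubiquitin ligases of the NEDD4 family, which send the cargo into endosomes. TXNIP, the best known member, also binds and inhibits thioredoxin and drives the glucose transporters GLUT1 and GLUT4 from the cell surface. Its gene is switched on by glucose through the factor pair MondoA and MLX, for which it serves as a negative feedback on glucose uptake.

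Txnip mRNA was the most abundant of the family by a wide margin. The Ctrl samples held 410.2, 416 and 418.5 FPKM, the DNP samples 224, 229 and 221 FPKM and the PF samples 197, 208 and 201 FPKM. The 3 groups did not overlap, with Ctrl highest and PF lowest. The means were 415 ± 4.33 FPKM in Ctrl, 225 ± 4.09 FPKM in DNP and 202 ± 5.30 FPKM in PF (SD, n = 3 each), so that the DNP mean was 54.2% and the PF mean 48.7% of the Ctrl mean. The replicates were close, since the SD was 1.04% of the mean in Ctrl, 1.82% in DNP and 2.62% in PF. By mean level Txnip ranked 199 among the 18006 genes in Ctrl, 392 in DNP and 475 in PF.

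On the log2(FPKM + 1) scale, used for all fold changes here, Txnip in DNP against Ctrl stood at -0.88 (standard error, SE, 0.0297). This was the 18th lowest value among the 10392 genes tested, those that reached 1 FPKM in 3 or more of the 6 samples. PF against Ctrl stood at -1.04 (SE 0.0348). PF against DNP stood at -0.15 (SE 0.0322), a difference that was -0.11 with samples scaled by median ratios and -0.25 with samples scaled to equal sums. Those comparisons share their Ctrl or DNP samples with the choice of Txnip, and no p is given for them either. In bulk RNA of this kind, fewer cells with the transcript and less transcript per cell cannot be told apart.

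**Figure D1:**
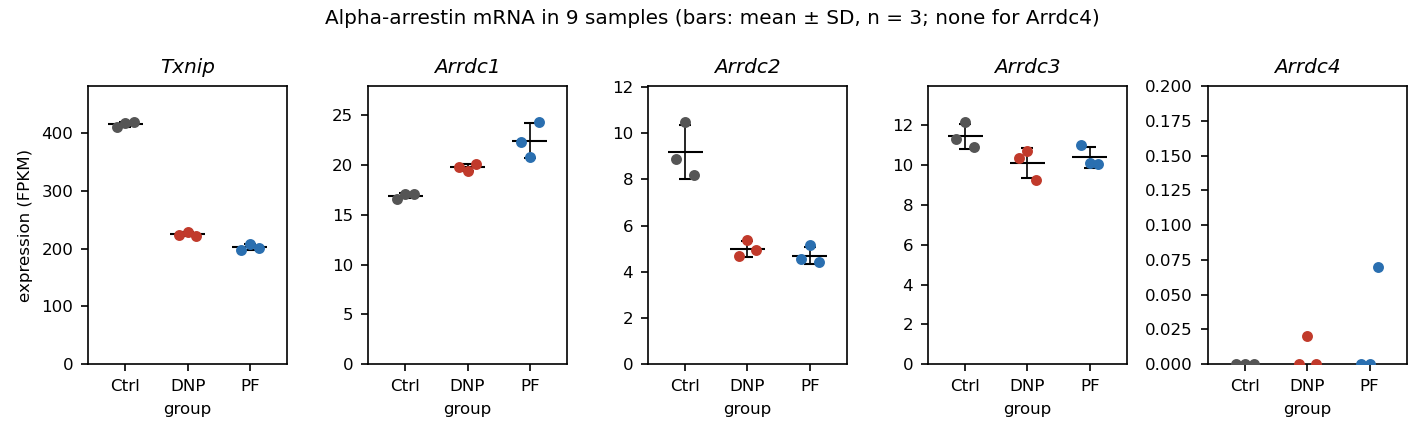
Expression in FPKM (vertical axes, each starting at 0 with its own scale) of the 5 alpha-arrestin genes in the Ctrl, DNP and PF samples; each point is 1 sample and the bars give mean ± SD (n = 3), except for Arrdc4. Txnip and Arrdc2 are highest in Ctrl, Arrdc1 is lowest in Ctrl, Arrdc3 varies little and Arrdc4 is at or near 0.

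Arrdc2 was the ARRDC gene that fell after antigen by the test. ARRDC2 is a little studied adaptor of the family. Its mRNA was at 8.88, 10.5 and 8.19 FPKM in Ctrl, at 4.69, 5.36 and 4.93 FPKM in DNP and at 4.56, 5.14 and 4.41 FPKM in PF. Every DNP and PF sample lay below every Ctrl sample, while DNP and PF overlapped. Arrdc2 fell from 9.18 ± 1.17 to 4.99 ± 0.339 FPKM between Ctrl and DNP (SD, n = 3 each), to 54.4% of the Ctrl mean. By limma, with p-values adjusted over all tested genes here and below, this was -0.76 on the log2 scale (SE 0.0910, adjusted p = 0.000806). Against Ctrl, PF samples at 4.70 ± 0.386 FPKM (SD, n = 3) gave -0.83 (SE 0.0941, adjusted p = 0.000120). PF and DNP differed by -0.07 (95% interval -0.25 to 0.11, adjusted p = 0.478), which leaves room for a modest difference in either direction.

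Arrdc1 went the other way. ARRDC1 sits at the plasma membrane and recruits the ESCRT protein TSG101 to bud small vesicles from the cell surface. Its mRNA was at 16.6, 17.1 and 17.1 FPKM in Ctrl, at 19.8, 19.4 and 20.1 FPKM in DNP and at 22.3, 20.8 and 24.3 FPKM in PF. The groups did not overlap, with PF highest and most spread. Arrdc1 rose from 16.9 ± 0.275 to 19.8 ± 0.331 FPKM between Ctrl and DNP (SD, n = 3 each), or 0.21 on the log2 scale (SE 0.0418, adjusted p = 0.00700). PF samples, at 22.5 ± 1.76 FPKM (SD, n = 3), were higher than Ctrl by 0.38 (SE 0.0606, adjusted p = 0.000767). Against DNP the value was 0.17 (SE 0.0578, adjusted p = 0.0350). That call was lost with samples scaled to equal sums (0.08, adjusted p = 0.350) and in 5 of the 6 fits that each left out 1 sample (each DNP sample in turn, and PF replicates 1 and 3), where the adjusted p reached 0.0948.

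Arrdc3 passed the test in none of the comparisons of the deposited values. ARRDC3 is known for its part in receptor trafficking and for its links to body mass and metabolism. Its mRNA was at 11.3, 12.2 and 10.9 FPKM in Ctrl, at 10.4, 10.7 and 9.24 FPKM in DNP and at 11.0, 10.1 and 10.1 FPKM in PF. The highest DNP sample was just under the lowest Ctrl sample, and PF overlapped with both. DNP stood at -0.17 against Ctrl (95% interval -0.32 to -0.01, adjusted p = 0.105), and PF at -0.13 (95% interval -0.27 to 0.02, adjusted p = 0.112), so neither passed the threshold of 0.05. With samples scaled to equal sums PF against Ctrl was -0.20 and passed (adjusted p = 0.0253). PF against DNP was 0.04 as deposited (95% interval -0.12 to 0.19, adjusted p = 0.670), and with equal sums its sign turned to -0.05.

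Arrdc4 mRNA was barely detected. ARRDC4 is the closest relative of TXNIP in function, a second glucose-induced member that also lowers glucose uptake. It was listed at 0 in 7 of the 9 samples, at 0.02 FPKM in 1 DNP sample and at 0.07 FPKM in 1 PF sample, and it was below the filter in every comparison. Arrdc5, a further alpha-arrestin by sequence, was at 0.07 FPKM in 1 sample of each group and listed at 0 in the others. Neither gene is given a mean or a fold change.

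Of the 3 ARRDC genes tested in DNP against Ctrl, 1 rose and 1 fell, beside 29.2% of all tested genes called in either direction (14.7% higher, 14.4% lower). In PF against Ctrl it was again 1 higher and 1 lower, beside 57.7% of all tested genes (23.1% higher, 34.6% lower). In PF against DNP only Arrdc1 was called, beside 48.8% (18.1% higher, 30.7% lower). The split of all genes depended on the scaling. PF against DNP gave 1870 genes higher and 3172 lower as deposited, 2527 and 2741 with median ratios and 869 and 4302 with equal sums. PF against Ctrl gave 2389 and 3586, 2929 and 3175, and 1575 and 4316 in the same order. With 3 samples against 3, a two-sided exact permutation test cannot give a p below 0.1. In this exact permutation test Arrdc1, Arrdc2 and Arrdc3 each gave p = 0.1 in DNP against Ctrl. The same value came from genes outside the family that limma did not call there, among them Txnrd1, Prdx1, Tsg101 and Prkaa1. The share of all tested genes at this value was not counted, so it does not single out the ARRDC genes.

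**Figure D2:**
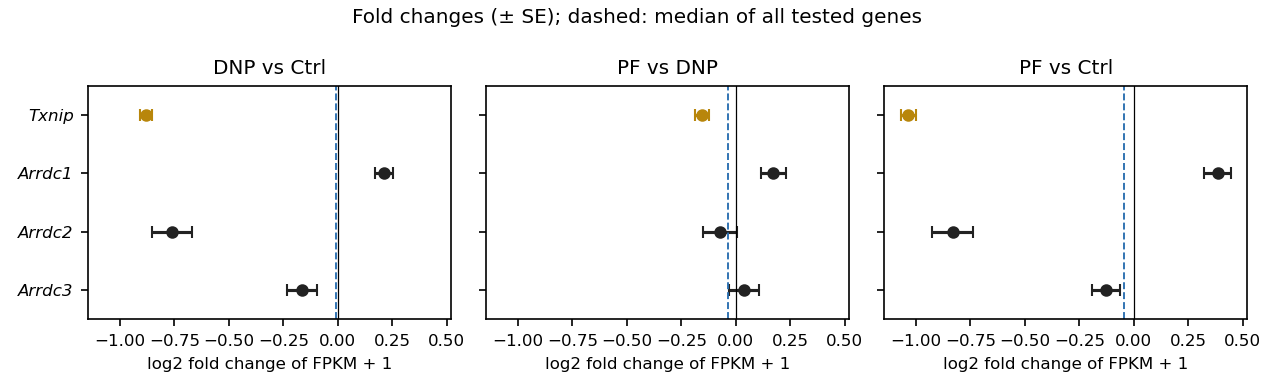
Log2 fold change of FPKM + 1 (horizontal axes) with its SE for Txnip and the 3 tested ARRDC genes in the 3 comparisons (3 samples per group); the dashed line is the median of all tested genes, at -0.01, -0.04 and -0.05. Txnip and Arrdc2 lie far to the left against Ctrl and nearer to it between PF and DNP, while Arrdc1 lies to the right throughout.

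Shares and ratios within the family are given as a description only, since they carry the fall for which Txnip was chosen. Txnip made up between 91.3% and 92.0% of the summed FPKM of the 5 genes in the Ctrl samples, between 86.5% and 86.6% in DNP and between 83.8% and 85.2% in PF. The summed level was between 447 and 456 FPKM in Ctrl, between 256 and 265 FPKM in DNP and between 235 and 244 FPKM in PF. Ratios within a sample do not depend on how samples are scaled. Txnip was at 45.7 ± 5.70 times Arrdc2 in Ctrl, 45.2 ± 2.52 times in DNP and 43.1 ± 2.57 times in PF (SD, n = 3 each), and the 3 groups overlapped. Its ratio to Arrdc1 was 24.5 ± 0.171 in Ctrl, 11.4 ± 0.398 in DNP and 9.04 ± 0.875 in PF (SD, n = 3 each), with no overlap. Its ratio to Arrdc3 was 36.3 ± 2.07, 22.3 ± 1.41 and 19.5 ± 1.37 (SD, n = 3 each), again highest in Ctrl.

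**Figure D3:**
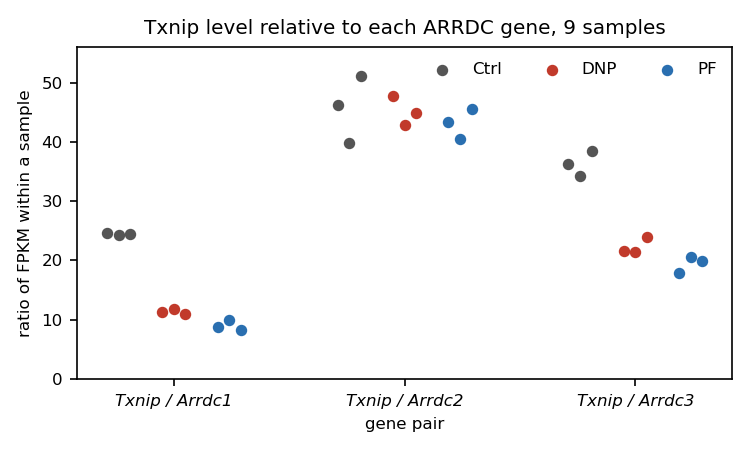
Ratio of Txnip FPKM to the FPKM of Arrdc1, Arrdc2 and Arrdc3 within each of the 9 samples (vertical axis from 0); each point is 1 sample. The ratio to Arrdc2 stays between 39.7 and 51.1 in all groups, while the ratios to Arrdc1 and Arrdc3 are highest in Ctrl.

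Sequence upstream of the ARRDC genes was searched for words bound by factors known to act on the TXNIP promoter. RefSeq promoters (build GRCr8, which is not the rn6 build of the expression values) were matched for 4 of the 5 members, all but Txnip. Matches were marked in the 250 bases before the start site, on both strands. CACGTG is the E-box core bound by MondoA and MLX, and CCAAT is the box bound by NF-Y. On the opposite strand that box reads ATTGG. The sequence is shown for Arrdc2, which fell beside Txnip, for Arrdc1, which rose, and for Arrdc4, which was near 0, each 5′ to 3′ on the gene's strand with the marked words in capitals. Arrdc2 lies at chr16:18635633-18635882 (plus strand), Arrdc1 at chr3:28140248-28140497 (minus strand) and Arrdc4 at chr1:131793426-131793675 (minus strand).
Arrdc2: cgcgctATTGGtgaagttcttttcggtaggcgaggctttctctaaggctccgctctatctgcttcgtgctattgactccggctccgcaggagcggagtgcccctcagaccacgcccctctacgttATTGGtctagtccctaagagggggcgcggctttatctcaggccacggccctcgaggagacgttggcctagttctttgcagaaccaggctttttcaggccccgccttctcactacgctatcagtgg
Arrdc1: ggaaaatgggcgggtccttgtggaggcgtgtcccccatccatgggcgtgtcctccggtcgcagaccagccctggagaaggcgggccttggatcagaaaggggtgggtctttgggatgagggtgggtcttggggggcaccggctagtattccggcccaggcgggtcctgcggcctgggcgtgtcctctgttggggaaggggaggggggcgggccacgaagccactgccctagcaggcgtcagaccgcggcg
Arrdc4: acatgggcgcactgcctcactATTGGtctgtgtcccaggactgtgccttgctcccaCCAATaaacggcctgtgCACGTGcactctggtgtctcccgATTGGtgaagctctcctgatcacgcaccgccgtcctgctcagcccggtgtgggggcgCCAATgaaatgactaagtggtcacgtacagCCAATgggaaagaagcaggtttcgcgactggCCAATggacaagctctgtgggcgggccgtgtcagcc

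The Arrdc2 window held 2 CCAAT words, at -244 and -125 from the start site, and no CACGTG. At least 2 CCAAT words were found in 9.42% of 33469 promoters of this length. The Arrdc1 window held neither word. The Arrdc4 window held 1 CACGTG, at -177, a word found in 5.59% of all promoters, and 6 CCAAT words, a number found in 11 promoters or 0.0329%. The Arrdc3 window held 1 CCAAT word at -201, as 34.0% of promoters hold at least 1. The forkhead site TGTTTAC was in 3.21% of promoters and in none of these 4. Only these exact words were searched, so a window without CACGTG may still hold a variant of it. These are matches of letters only, and no binding was measured.

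Lists of genes around the alpha-arrestins were then read for the same comparisons. Together they held 73 genes with values. Of 59 tested in DNP against Ctrl, 20 were called (33.9%), 11 higher and 9 lower, beside 29.2% of all genes. Of 60 tested in PF against DNP, 29 were called (48.3%), beside 48.8% of all genes, and in PF against Ctrl 38 of 60 (63.3%), beside 57.7%. With both other scalings, 19 of the 20, 23 of the 29 and 30 of the 38 kept their call and direction. In the 6 fits of each comparison that left out 1 sample, 9 of the 20, 25 of the 29 and 30 of the 38 calls held throughout.

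**Figure D4:**
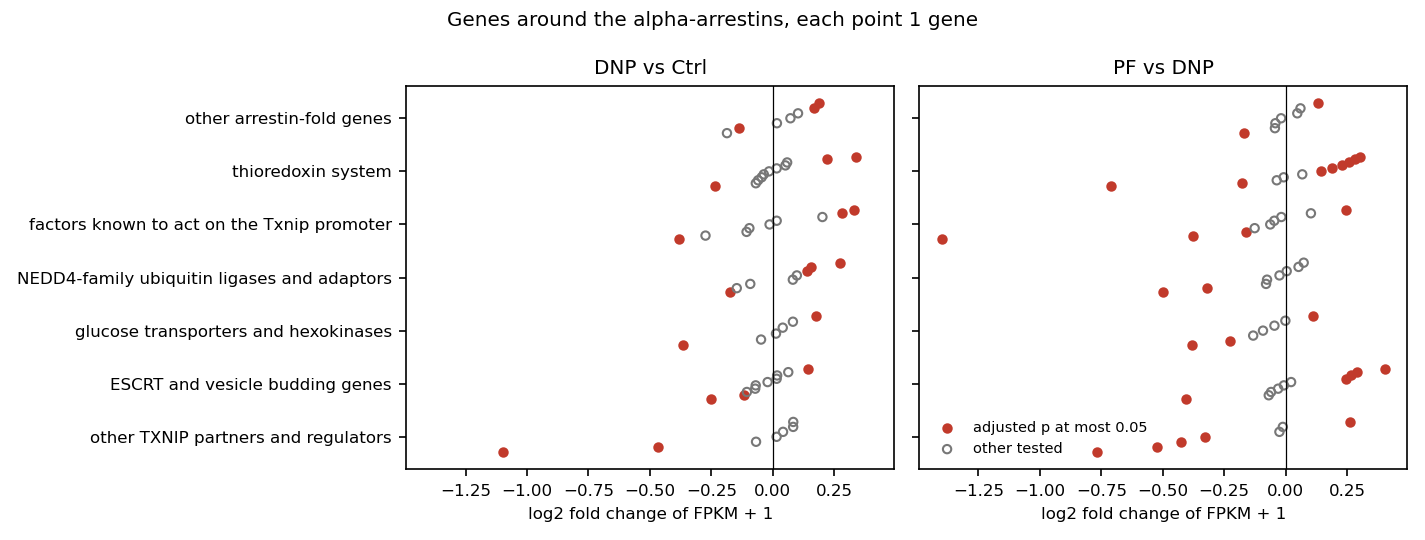
Log2 fold change of FPKM + 1 (horizontal axes) of each tested gene in 7 lists around the alpha-arrestins, for DNP against Ctrl and PF against DNP; each point is 1 gene and filled points have a adjusted p of at most 0.05. After antigen, Ddit4 at -1.10 lies farthest from 0, and between PF and DNP, Foxo3 at -1.40 does.

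Factors known to act on the Txnip promoter came first. Mlxip, which encodes MondoA, was at 11.8, 12.3 and 10.4 FPKM in Ctrl, at 8.87, 9.17 and 7.76 FPKM in DNP and at 7.59, 7.50 and 8.26 FPKM in PF. It fell in DNP against Ctrl by 0.38 on the log2 scale (SE 0.0800, adjusted p = 0.00900) and stood at -0.51 in PF against Ctrl (adjusted p = 0.000448). Its partner Mlx was at -0.11 after antigen (adjusted p = 0.0633), from 68.9 ± 2.18 to 63.9 ± 1.54 FPKM (SD, n = 3 each), and fell in PF against DNP by 0.16 (adjusted p = 0.00598). Mlxipl, the related factor ChREBP, was listed without a value.

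The forkhead factors FOXO1 and FOXO3, which are held out of the nucleus by growth factor signalling through AKT, were next. Foxo1 rose from 33.6 ± 1.33 to 42.5 ± 2.62 FPKM after antigen and was at 32.5 ± 1.50 FPKM in PF (SD, n = 3 each). Its log2 fold change was 0.33 in DNP against Ctrl (adjusted p = 0.00283) and -0.38 in PF against DNP (adjusted p = 0.000466). Foxo3 was at 15.3 ± 0.975 FPKM in Ctrl, 17.8 ± 1.31 FPKM in DNP and 6.11 ± 0.437 FPKM in PF (SD, n = 3 each). The step between PF and DNP was -1.40 (adjusted p = 1.36e-06), while DNP against Ctrl fell just short of passing (0.20, adjusted p = 0.0532). Of the 9 genes of this list, all tested, 2 rose and 1 fell in DNP against Ctrl (median -0.01). With median ratios 3 rose and 1 fell there. In PF against DNP 1 rose and 3 fell (median -0.06), and in PF against Ctrl 2 rose and 4 fell (median -0.06). Among all tested genes 29.2%, 48.8% and 57.7% were called in these comparisons in turn. Nfyb, a subunit of the CCAAT-binding NF-Y, was the other gene that rose after antigen, by 0.28 (adjusted p = 0.0388). That call held in 1 of the 6 fits, the fit without Ctrl replicate 3. The other NF-Y subunits, Nfya (-0.27, adjusted p = 0.0764) and Nfyc (-0.10, adjusted p = 0.161), did not pass after antigen. In PF against DNP Nfyc rose by 0.25 (adjusted p = 0.00160). Against Ctrl, PF had higher Nfyb (0.38, adjusted p = 0.00714) and Nfyc (0.15, adjusted p = 0.00889) and lower Nfya (-0.29, adjusted p = 0.00712). That Nfyc call against Ctrl was lost with equal sums (0.07, adjusted p = 0.184).

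Among other partners and regulators of TXNIP, Ddit4 had the largest change in DNP against Ctrl and Cdkn1b in both comparisons with PF. DDIT4, also called REDD1, is a stress-induced inhibitor of mTORC1 that is known to form a complex with TXNIP. Its mRNA was at 49.6, 54.0 and 54.6 FPKM in Ctrl, at 23.4, 24.8 and 24.1 FPKM in DNP and at 30.9, 29.1 and 27.4 FPKM in PF. The groups did not overlap, with DNP lowest. Ddit4 fell in DNP to 45.7% of the Ctrl mean, or -1.10 on the log2 scale (SE 0.0475, adjusted p = 3.34e-06). In PF it was higher than in DNP by 0.26 (adjusted p = 0.00272), whereas Txnip stood at -0.15 there.

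Cdkn1b, which encodes the cell cycle inhibitor p27 that TXNIP is known to stabilize, was at 125, 109 and 115 FPKM in Ctrl, 90.5, 78.6 and 82.6 FPKM in DNP and 46.2, 49.8 and 50.4 FPKM in PF. It fell after antigen by 0.47 (adjusted p = 0.00133) and further in PF against DNP by 0.77 (adjusted p = 9.62e-06). Map3k5, the stress kinase ASK1 that thioredoxin holds inactive, stood at -0.07 after antigen (adjusted p = 0.403) and fell in PF against DNP by 0.52 (adjusted p = 0.000859). The AMPK subunit Prkaa1 fell in the same comparison by 0.33 (adjusted p = 0.000180). Nlrp3, the inflammasome sensor that binds TXNIP, stayed between 2.38 and 2.92 FPKM in all samples. Of the 8 genes of this list 7 were tested. After antigen 2 fell and 0 rose (median 0.02), in PF against DNP 1 rose and 4 fell (median -0.33), and in PF against Ctrl 5 fell and 0 rose (median -0.34). Of all tested genes 14.4%, 30.7% and 34.6% were called lower in these comparisons in turn, and 14.7%, 18.1% and 23.1% higher.

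**Figure D5:**
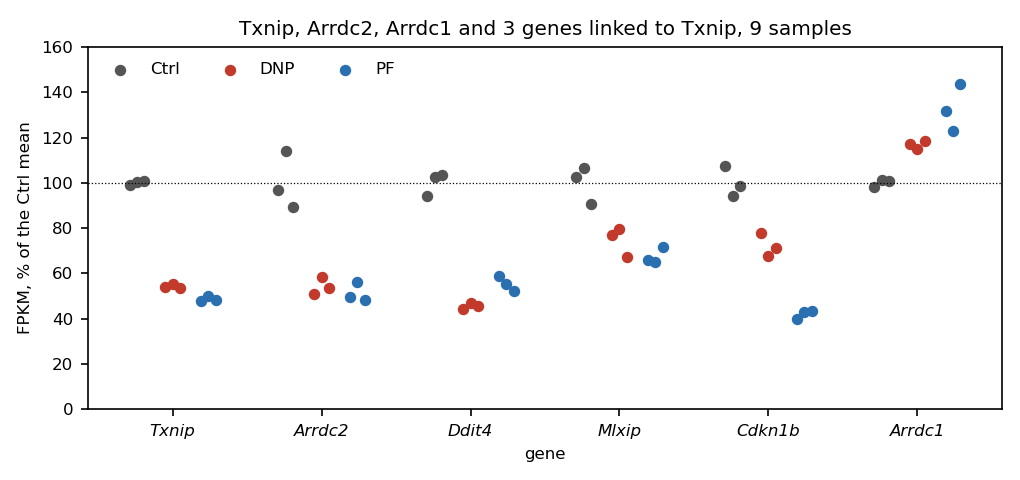
FPKM as a percentage of the Ctrl mean (vertical axis from 0, dotted line at 100) for Txnip, Arrdc2, Ddit4, Mlxip, Cdkn1b and Arrdc1 in the 9 samples; each point is 1 sample. Ddit4 is lowest in DNP, Cdkn1b is lowest in PF, and Arrdc1 is the only one of the 6 above 100 in all DNP and PF samples.

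Txn1, which encodes the thioredoxin that TXNIP restrains, was at 738 ± 37.9 FPKM in Ctrl, 715 ± 12.3 FPKM in DNP and 855 ± 22.6 FPKM in PF (SD, n = 3 each), above Txnip in every group. It did not pass in DNP against Ctrl (-0.05, adjusted p = 0.453) and rose in PF against DNP by 0.26 (adjusted p = 0.000262). Prdx1, a peroxiredoxin that thioredoxin recycles, was at 936 ± 30.1 FPKM in DNP and 1153 ± 38.2 FPKM in PF (SD, n = 3 each), a rise of 0.30 (adjusted p = 0.000267). The reductases parted, as cytosolic Txnrd1 fell by 0.18 (adjusted p = 0.00421) and mitochondrial Txnrd2 rose by 0.28 (adjusted p = 0.0120). With samples scaled to equal sums, Txnrd2 no longer passed (0.20, adjusted p = 0.0551). Srxn1, which repairs overoxidized peroxiredoxins, rose after antigen by 0.22 (adjusted p = 0.0317, a call that held in 1 of the 6 fits, that without Ctrl replicate 2) and fell in PF against DNP by 0.71 (adjusted p = 3.00e-05). Of the 12 genes 11 were tested. In DNP against Ctrl 2 rose and 1 fell (median -0.02), in PF against DNP 6 rose and 2 fell (median 0.14), and in PF against Ctrl 5 rose and 2 fell (median 0.12). With equal sums PF against DNP gave 3 higher and 4 lower and PF against Ctrl 3 and 3. After antigen the list's 3 calls became 0 without DNP replicate 1 and 1 without any of Ctrl replicates 1 and 3 and DNP replicates 2 and 3. All tested genes were called in 29.2%, 48.8% and 57.7% of cases in these comparisons.

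Nedd4, a ligase that alpha-arrestins recruit, was at 129, 122 and 127 FPKM in Ctrl, 153, 153 and 151 FPKM in DNP and 149, 144 and 157 FPKM in PF. It rose after antigen by 0.27 (SE 0.0325, adjusted p = 0.000759), a call that held whichever sample was left out. Its membrane adaptors Ndfip1 and Ndfip2 rose by 0.15 (adjusted p = 0.0267) and 0.14 (adjusted p = 0.0403), but each call held in only 1 of the 6 fits, Ndfip1 without Ctrl replicate 3 and Ndfip2 without DNP replicate 2. Wwp2 fell by 0.17 (adjusted p = 0.0181), a call that held in 4 of the 6 fits and was lost without Ctrl replicate 2 or DNP replicate 3. Itch, the ligase known to degrade TXNIP, did not pass after antigen (0.08, adjusted p = 0.382) and fell in PF against DNP by 0.32 (adjusted p = 0.00307), as did Smurf1 by 0.50 (adjusted p = 0.000126). Of the 11 genes 8 were tested, with 3 higher and 1 lower after antigen (median 0.09), 2 lower and 0 higher in PF against DNP (median -0.05) and 2 higher and 3 lower in PF against Ctrl (median -0.05). After antigen the 4 calls became 1 without Ctrl replicate 2 or DNP replicate 3, and 2 without Ctrl replicate 1 or DNP replicate 1. In PF against Ctrl the 5 became 3 without Ctrl replicate 1, PF replicate 1 or PF replicate 2. With equal sums PF against DNP gave 4 lower and 0 higher. Called among all tested genes were 29.2% in DNP against Ctrl, 48.8% in PF against DNP and 57.7% in PF against Ctrl. Nedd4l and Hecw1 were at or below 0.02 FPKM in every sample.

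Of the glucose transporters, Slc2a1, which encodes GLUT1, was at 30.9, 31.3 and 29.6 FPKM in Ctrl, 35.5, 34.0 and 34.5 FPKM in DNP and 33.9, 33.8 and 32.9 FPKM in PF. It rose after antigen by 0.18 (SE 0.0394, adjusted p = 0.0122). The more abundant Slc2a3, which encodes GLUT3, was at 150.5 ± 9.76 FPKM before and 159 ± 8.08 FPKM after antigen (SD, n = 3 each) and did not pass (adjusted p = 0.297). Slc2a8, which encodes the intracellular transporter GLUT8, fell in both steps, by 0.36 after antigen (adjusted p = 0.00533) and by 0.38 in PF against DNP (adjusted p = 0.00769). In PF it stood at 57.9% of the Ctrl mean (-0.74, adjusted p = 0.000315). Hk2, an inducible hexokinase, fell in PF against DNP by 0.23 (adjusted p = 0.0335), a call lost with median ratios (adjusted p = 0.0596). With 1 sample left out, the Hk2 call held in 2 of the 6 fits, and the adjusted p reached 0.108. Of the 12 genes 6 were tested after antigen, with 1 higher and 1 lower (median 0.03). Of 7 tested with PF, 1 rose and 2 fell against DNP (median -0.09) and 2 rose and 2 fell against Ctrl (median -0.05). Beside these counts, 29.2% of all tested genes were called after antigen, 48.8% in PF against DNP and 57.7% in PF against Ctrl. With equal sums 0 rose and 5 fell against DNP, and 0 rose and 3 fell against Ctrl. The 3 calls against DNP became 1 without DNP replicate 2, DNP replicate 3 or PF replicate 1, and the 4 against Ctrl became 1 without Ctrl replicate 1 or PF replicate 1 and 2 without Ctrl replicate 3 or PF replicate 2. The insulin-dependent Slc2a4 stayed at or below 0.620 FPKM.

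Other genes of the arrestin fold included Vps26a, a subunit of the retromer that returns cargo from endosomes, and the beta-arrestins. Vps26a rose after antigen from 111 ± 1.13 to 125 ± 1.30 FPKM (SD, n = 3 each), by 0.17 on the log2 scale (adjusted p = 0.00424). Of the beta-arrestins, which desensitize G protein-coupled receptors, Arrb1 rose by 0.19 (adjusted p = 0.0314) and Arrb2 fell by 0.14 (adjusted p = 0.0290, and 0.0522 with equal sums). The Arrb1 call held in 2 of the 6 fits, those without Ctrl replicate 1 or DNP replicate 3, and the Arrb2 call in 1, that without Ctrl replicate 1. Of the 9 genes 7 were tested, with 2 higher and 1 lower after antigen (median 0.07), 1 and 1 in PF against DNP (median -0.02) and 3 and 2 in PF against Ctrl (median 0.03). The share of all tested genes called was 29.2%, 48.8% and 57.7% in these comparisons in turn. After antigen the 3 calls became 1 without Ctrl replicates 2 or 3 or DNP replicates 1 or 2. In PF against DNP, 0 rose and 3 fell with equal sums, and the 1 rise, of Vps26b, was lost without DNP replicates 1 or 2 or PF replicates 1 or 3.

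Among the 10 ESCRT and vesicle budding genes, all tested, Tsg101, the partner of ARRDC1, was at 89.4 ± 1.50 FPKM in Ctrl, 93.4 ± 2.47 FPKM in DNP and 89.0 ± 3.43 FPKM in PF (SD, n = 3 each) and did not pass after antigen (0.06, adjusted p = 0.196). Vps4a, an ATPase that recycles the complex, rose in PF against DNP by 0.40 (adjusted p = 5.39e-05), and Hgs rose by 0.29 (adjusted p = 0.000304) while its partner Stam fell by 0.40 (adjusted p = 0.00118). After antigen 1 rose and 2 fell (median -0.05), with 1 call left without DNP replicate 1 or 2, in PF against DNP 4 rose and 1 fell (median 0.01), which became 4 and 4 with equal sums, and in PF against Ctrl 3 rose and 3 fell (median -0.01). Across all tested genes 29.2%, 48.8% and 57.7% were called in these comparisons in turn. Of known alpha-arrestin cargo, the metal transporter gene Slc11a2 was not called in any of the comparisons (0.06, 0.04 and 0.11).

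The profile of Txnip over the 9 samples was last set against those of 3753 genes with at least 1 FPKM in every sample and a range of at least 0.5 on the log2 scale. Pearson's r is a description here, since the 9 samples form 3 groups and share their libraries with the choice of Txnip. The 5 genes most alike were Urb2 (r = 0.993), Cxcr4 (r = 0.992), Cry2 (r = 0.989), Cdc42se1 (r = 0.988) and Sqstm1 (r = 0.986). Sqstm1, which encodes the autophagy adaptor p62, was as abundant as Txnip in Ctrl, at 423 ± 10.6 FPKM, and stood at 299 ± 12.6 FPKM in DNP and 268 ± 3.59 FPKM in PF (SD, n = 3 each). Cry2, a repressor of the circadian clock, was at 19.4 ± 0.555, 12.6 ± 0.329 and 12.3 ± 0.461 FPKM (SD, n = 3 each). The 5 most opposite were Egr1 (r = -0.996), Fosb (r = -0.995), Eef2k (r = -0.994), Kntc1 (r = -0.993) and Ndc1 (r = -0.990). Eef2k, the kinase that slows translation elongation, was at 205 ± 1.55, 267 ± 2.81 and 282 ± 9.56 FPKM (SD, n = 3 each). Arrdc2 was at rank 26 of the 3753 with r = 0.971, Mlxip at rank 127 with r = 0.932 and Ddit4 at rank 143 with r = 0.925, while Arrdc1 was at r = -0.905. Over the 6 Ctrl and DNP samples alone, 1 of these 10 genes was again among the 5 highest or lowest, and r remained at 0.982 or more for the first 5 and at -0.984 or less for the others.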

How the data were processed

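Values deposited by the authors carry no unit in their heading and were read as FPKM, because they have decimals and sum to different totals. By the paper's methods and the submitters' processing notes, reads were filtered with SOAPnuke, mapped with HISAT2 2.0.4, aligned with Bowtie2 2.2.5 and quantified with RSEM 1.2.12 on rn6. The methods name a BGISEQ-500 sequencer and the labels Illumina protocols. The annotation is not given in the sources used here. Of 38490 gene rows, 20484 had no value in any sample. Samples were joined by gene identifier.

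Each comparison was fitted on its own 6 samples over the genes that reached 1 FPKM in 3 or more of them. The log2(FPKM + 1) values were fitted with a mean-variance trend (limma 3.58.1, R 4.3.3). This scale understates changes of low genes. P-values were adjusted by Benjamini-Hochberg over all tested genes, with a threshold of 0.05. The fit was tested on simulated data. No count test was run, since FPKM holds no counts, and no counting error can be given. All 5 members were named, genes of the 8 lists where a call came with groups that did not overlap or where a sentence needed them, and the 5 genes most and least like Txnip by Pearson's r. The members and lists were chosen with earlier results of these data known. Equal sums means scaling each sample to the mean of the 9 deposited sums. Some genes of the lists were counted but are not reported by name here.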

Additional observations from a re-analysis of the deposited data

How the results depend on the processing

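The number of genes called in DNP against Ctrl was within 1.5 times the 3031 of the reported fit except at a threshold of 0.01, which gave 1469. Across the fits that left out 1 sample it ran from 2099 to 2736, in PF against DNP from 4138 to 4796 and in PF against Ctrl from 5147 to 5541. Arrdc2 and Arrdc1 kept their calls against Ctrl, in DNP and in PF, under every alternative run. The count of ARRDC genes called stayed at 2 in both comparisons when 1 sample was left out.

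In PF against DNP the lone call, Arrdc1, was lost at a threshold of 0.01, with no filter on low values, and without the trend (each 0.17, adjusted p = 0.0350, 0.0700 and 0.0542), and with equal sums (0.0777), each leaving 0 ARRDC genes called. With only the PF sample given 4 h in both label fields, Arrdc1 was at 0.16 and 0 were called, but that fit has 1 PF sample, which is assumed to vary like the DNP samples, and says little about the call. Leaving out 1 sample gave Arrdc1 values from 0.12 to 0.22 and counts from 0 to 1. Of these fits, the one without PF replicate 2 held the call. Arrdc3 there turned to -0.0521 with equal sums, and ran from -0.0193 to 0.0781 with 1 sample left out, the lowest being without DNP replicate 3. Against Ctrl, Arrdc3 in PF passed with equal sums (-0.20).

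Txnip in PF against DNP was -0.11 with median ratios, -0.25 with equal sums and -0.19 with only the PF sample given 4 h, and against Ctrl -0.99, -1.11 and -1.07. The median of all genes in PF against DNP was 0.01 with median ratios and -0.13 with equal sums. Of the values for the lists under alternatives, 296 were within 1.5 times the reported count and 56 were not. Of the 10 genes named for their likeness to Txnip, 1 was named again over the 6 Ctrl and DNP samples. Same-numbered samples deviated together weakly or not at all (correlations across genes from -0.0822 to 0.189), and the numbers were not taken as pairs. In PF against Ctrl the correlations were 0.0908, 0.189 and 0.083. There every PF sample correlated best with the Ctrl sample of its own number, which was not so in the other comparisons. With the replicate number as a block, 2697, 4675 and 6009 genes were called and no ARRDC call changed. The depth in reads is unknown, so a 0 for Arrdc4 says that it was not detected.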
